A study of Mus musculus with 12 samples.

Results

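The mitochondrial respiratory chain passes electrons from NADH and succinate to oxygen and stores the released energy as a proton gradient, which the ATP synthase uses to make ATP. Complex II (succinate dehydrogenase) oxidises succinate, complex III (ubiquinol-cytochrome c reductase) hands electrons to cytochrome c, complex IV (cytochrome c oxidase) hands them to oxygen, and complex V is the ATP synthase. Most of their subunits are encoded in the nucleus, and neurons, which spend much of their energy on ion pumping and synaptic transmission, depend on this pathway for most of their ATP. The nuclear genes of complexes II to V are described here in CA1, the hippocampal field whose pyramidal neurons serve memory.

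Members were the protein-coding genes whose symbols begin with Cox4, Cox5, Cox6, Cox7, Cox8, Uqcr or Atp5, together with Cyc1, Sdha, Sdhb, Sdhc and Sdhd. Of 48 candidates by symbol, 45 of the 48709 gene identifiers in the count files averaged at least 10 counts over the 12 libraries. Complex II had 4 members, complex III had 9, complex IV had 15 and complex V had 17. The 3 candidates below the minimum were Cox7b2, Cox8b and Cox8c, with 68, 41 and 1 counts in all. The members just above it were Cox7a1, Cox4i2, Atp5g2 and Cox6b2, which averaged 23.2, 27.5, 34.7 and 39.1 counts per library. A symbol rule also takes genes that are not core subunits: Cox7a2l encodes a factor for the assembly of respiratory supercomplexes, and Atp5s encodes a coupling factor of the ATP synthase. Usmg5, another subunit gene of the ATP synthase, carries a symbol outside the rule and was not a member.

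The study asked whether infarction of the heart alters gene expression in the hippocampus. One group of 6 mouse libraries (MI) came from CA1 of animals whose coronary artery had been ligated to cause a myocardial infarction, and the other 6 (Sham) from animals that had the operation without the ligation. Polyadenylated RNA was sequenced from dissected and frozen CA1 tissue, and the labels give no strain, sex, age or time after surgery. Nor do they state that every library is 1 mouse, and p-values then refer only to the spread among these libraries, which may be technical.

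Total counts ran from 21364928 to 33614313 in MI libraries and from 20764133 to 35643127 in Sham libraries. Pyramidal-neuron markers of CA1 were abundant in every library, with summed levels of 6065 to 8501 CPM (counts scaled to library size) in MI and 5191 to 9495 CPM in Sham. Markers of dentate granule cells summed to 137 to 308 CPM in MI libraries and reached 717 CPM in Sham 6, the highest of the 12, and markers of meninges and fibroblasts summed to 75.1 to 130.01 CPM in MI and 40.2 to 231 CPM in Sham. All 6 oligodendrocyte markers were higher in MI at an unadjusted p under 0.05 in edgeR. Their summed levels were 4689 to 5943 CPM in MI and 2518 to 5172 CPM in Sham. At the same level 3 of 6 interneuron and 1 of 5 endothelial markers were higher. Lower in MI were 3 of 6 meningeal and fibroblast, 1 of 5 dentate and 1 of 6 astrocyte markers. Over all genes tested, 3.95% were higher and 3.59% lower. The part of these markers in the results below was not tested. Libraries with Y-linked counts were MI 1, 3 and 4 and Sham 1, 2 and 3, whereas the others held Xist counts in their place. In bulk tissue, more cells of a type and more RNA per cell cannot be told apart.

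Promoters of 34 members were found in RefSeq, as 37 windows of 250 bases before to 50 bases after the annotated start. Cox4i1, Cox4i2, Cox6a2, Cox6c, Sdhc, Cyc1, Uqcrb, Uqcrc2, Uqcrq, Atp5a1 and Atp5mpl had no window there. The windows were searched on both strands for 3 short sequences bound by activators of respiratory genes: GCGCATGC for nuclear respiratory factor 1 (NRF1), CCGGAAG for ETS factors such as GABPA, and AAGATGGC for YY1. At least 1 of the 3 occurred in 43.2% of the members' windows, against 13.3% of all 32851 promoter windows and 16.7% of those of protein-coding genes. The ETS letters occurred in 32.4% of the members' windows and 8.86% of all windows, the NRF1 letters in 18.9% and 2.71%, and the YY1 letters in 8.11% and 2.75%. All 3 windows with the YY1 letters belonged to complex V, in Atp5f1, Atp5j2 and Atp5j. To show what these regions look like, the 250 upstream bases are given for the member of each complex with the smallest p that had a RefSeq promoter, from GRCm38.p6 and in the direction of transcription. Capitals mark matches to the motifs, and positions count from the annotated start as 0, negative upstream.
Sdhb, chr4:140961021-140961270, plus strand: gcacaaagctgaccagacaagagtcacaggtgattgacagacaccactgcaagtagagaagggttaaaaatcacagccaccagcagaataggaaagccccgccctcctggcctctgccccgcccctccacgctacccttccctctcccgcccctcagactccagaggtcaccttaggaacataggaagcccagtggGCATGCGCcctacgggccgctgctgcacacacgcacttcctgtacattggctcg
Uqcr10, chr11:4704345-4704594, minus strand: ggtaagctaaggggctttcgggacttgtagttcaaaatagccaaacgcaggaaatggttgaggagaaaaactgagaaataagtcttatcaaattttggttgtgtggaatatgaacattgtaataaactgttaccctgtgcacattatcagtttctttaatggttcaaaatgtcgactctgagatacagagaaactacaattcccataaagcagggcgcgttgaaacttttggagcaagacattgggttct
Cox6a1, chr5:115348959-115349208, minus strand: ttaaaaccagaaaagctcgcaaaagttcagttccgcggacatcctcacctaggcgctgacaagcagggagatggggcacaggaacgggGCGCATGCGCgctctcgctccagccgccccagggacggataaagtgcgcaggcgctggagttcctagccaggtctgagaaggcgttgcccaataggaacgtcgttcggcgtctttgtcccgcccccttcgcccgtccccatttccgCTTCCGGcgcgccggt
Atp5e, chr2:174464102-174464351, minus strand: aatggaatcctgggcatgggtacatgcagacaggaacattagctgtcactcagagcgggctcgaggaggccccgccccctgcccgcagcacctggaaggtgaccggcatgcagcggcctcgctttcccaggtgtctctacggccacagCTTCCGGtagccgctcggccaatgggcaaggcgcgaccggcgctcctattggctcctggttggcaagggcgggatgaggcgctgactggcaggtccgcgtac

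In Sdhb the NRF1 letters lay at position -54 on the opposite strand, and an ETS match followed the start at position 6, outside the bases shown. The Cox6a1 promoter held 2 overlapping NRF1 matches, at -162 and -160 on opposite strands, and an ETS match at -16. Atp5e held an ETS match at -102. None of the 3 letter strings occurred in the Uqcr10 window.

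None of the 45 members passed an adjusted p under 0.05 between MI and Sham by the edgeR quasi-likelihood test after Benjamini-Hochberg adjustment, where the smallest adjusted p of any gene was 0.597 and 0% of the 16829 genes tested were called. DESeq2 called 0.0636% of the genes it tested, and no member was among them. The members' estimates lay mostly on one side: 41 of 45 had a positive log2 fold change (MI over Sham), where 47.6% of all genes tested did. The median was 0.09 on the log2 scale, a fold of 1.06, against -0.01 for all genes tested and -0.00 for the 8048 genes that averaged at least 500 counts. At an unadjusted p under 0.05, 11 members were higher in MI, where 3.95% of all genes were, and 0 were lower, where 3.59% were. No member had all 6 MI libraries above all 6 Sham libraries, a pattern seen in 0.25% of genes tested. Estimates ran from -0.18 for Atp5g2 to 0.36 for Cox7a1, whose standard error (SE) of 0.20 was among the widest.

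**Figure D1:**
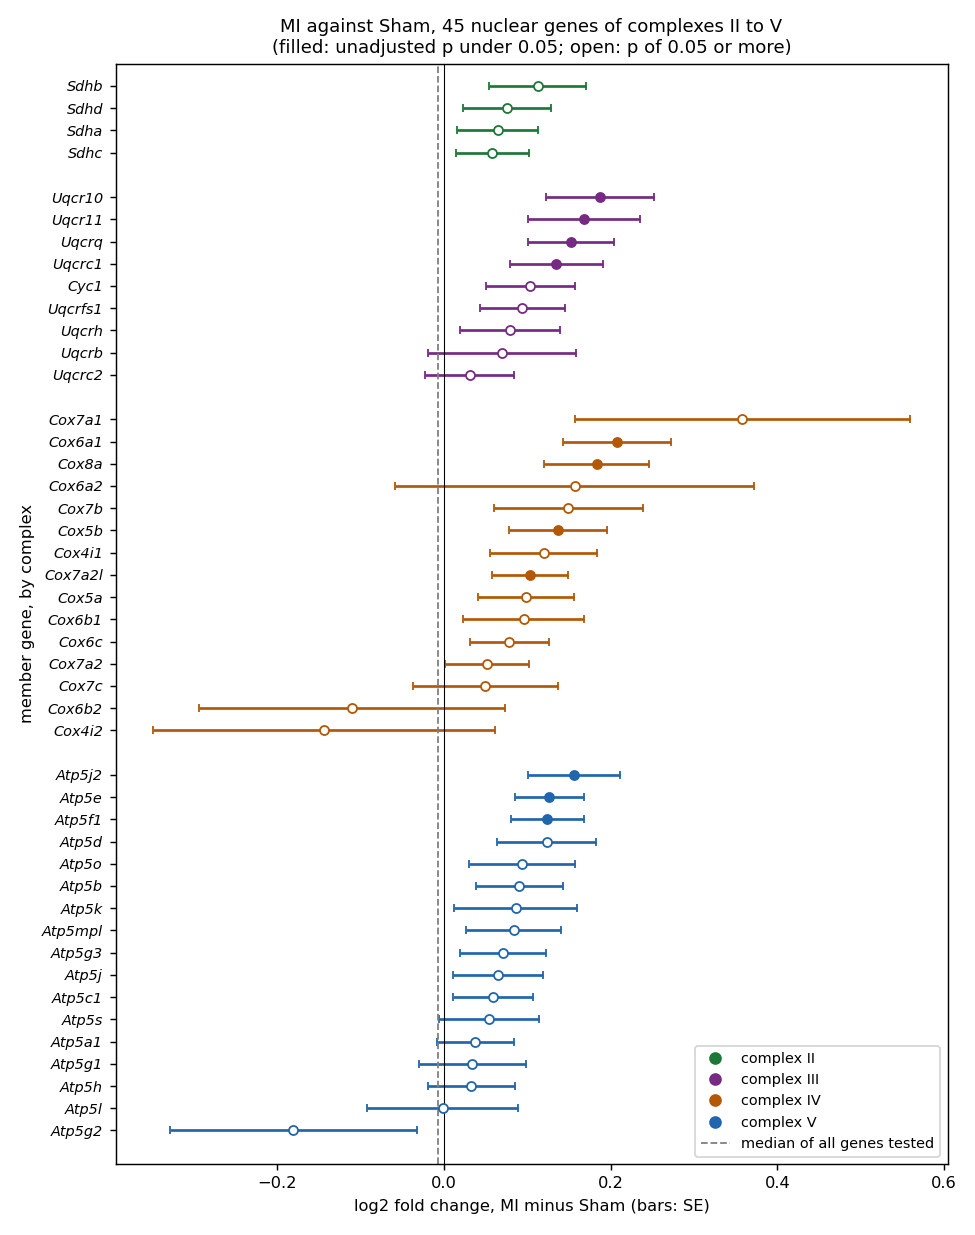
Log2 fold change of MI over Sham for the 45 members, grouped by complex, with bars of 1 SE from edgeR and filled points for an unadjusted p under 0.05. Of the 45 points, 41 lie to the right of 0, and the dashed line marks the median of all genes tested, -0.01.

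By complex, the median log2 fold change was 0.07 in complex II, 0.10 in complex III, 0.10 in complex IV and 0.07 in complex V. All 4 members of complex II and all 9 of complex III had positive estimates, as had 13 of 15 in complex IV and 15 of 17 in complex V. Members higher at an unadjusted p under 0.05 numbered 0 in complex II, 4 in complex III, 4 in complex IV and 3 in complex V. Over all genes tested, 3.95% were higher at that level. The summed level of complex IV was 1333 ± 98.1 CPM in MI and 1216 ± 65.7 CPM in Sham (n = 6 libraries per group, SD), and that of complex V was 3004 ± 146 CPM in MI and 2850 ± 122 CPM in Sham. Complex III summed to 926 ± 46.2 CPM in MI and 862 ± 50.6 CPM in Sham. Complex II summed to 681 ± 20.5 CPM in MI and 647 ± 36.7 CPM in Sham. In each complex the group ranges overlapped. The complexes' medians differed from each other by less than the median SE of a single member, 0.06, and no test of a difference between complexes was made.

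Complex II links the citric acid cycle to the respiratory chain. Its flavoprotein Sdha, which holds the succinate site, had 419, 437 and 452 CPM (lowest, median and highest library) in MI, against 382, 412 and 452 CPM in Sham. The iron-sulfur subunit Sdhb had 100.3, 105 and 113 CPM in MI, against 81.7, 100.4 and 105 CPM in Sham. For both genes the lowest of all 12 libraries was Sham 6. Sham libraries below every MI library numbered 4 for Sdha and 3 for Sdhb. MI libraries above every Sham library numbered 0 for Sdha and 3 for Sdhb. The membrane anchors are Sdhc and Sdhd. Sdhc had 61.9, 67.5 and 70.5 CPM in MI, against 60.1, 64.9 and 68.2 CPM in Sham. Sdhd had 68.0, 72.0 and 75.9 CPM in MI, against 59.8, 70.5 and 72.8 CPM in Sham. The groups overlapped for each of these 4 genes, and the log2 fold changes ran from 0.06 (Sdhc, SE 0.04) to 0.11 (Sdhb, SE 0.06, unadjusted p 0.0754).

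Among complex III members, the 3 smallest p-values belonged to small subunits that surround the catalytic core. Uqcrq had 60.1, 65.5 and 69.9 CPM in MI, against 54.4, 59.1 and 63.4 CPM in Sham, a log2 fold change of 0.15 (SE 0.05, unadjusted p 0.0108). Uqcr10 had 56.6, 63.6 and 71.3 CPM in MI, against 49.5, 56.2 and 60.7 CPM in Sham, with 0.19 (SE 0.06, unadjusted p 0.0123). For both genes 4 of 6 MI libraries exceeded every Sham library, and 4 of 6 Sham libraries lay below every MI library. Uqcr11 had 34.9, 37.4 and 44.9 CPM in MI, against 32.9, 34.3 and 37.4 CPM in Sham, with 0.17 (SE 0.07, unadjusted p 0.0256). Its wider MI range came from MI 3 and MI 4, as the plot of levels by library shows. Uqcrc1, a core protein on the matrix side, averaged 223 ± 15.6 CPM in MI and 203 ± 11.5 CPM in Sham, with 0.13 (SE 0.06, unadjusted p 0.0312). Its partner core protein Uqcrc2 had an estimate of 0.03 (SE 0.05), and of -0.0038 without Sham 6. The subunits that carry the electrons, the cytochrome Cyc1 and the Rieske iron-sulfur protein Uqcrfs1, had 0.10 (SE 0.05) and 0.09 (SE 0.05). The hinge protein Uqcrh and the ubiquinone-binding Uqcrb had 0.08 (SE 0.06) and 0.07 (SE 0.09).

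Cytochrome c oxidase has a mitochondrially encoded core and a shell of nuclear subunits, several of which exist as alternative tissue forms. Cox6a1 encodes the widespread form of a regulatory subunit. It had 173, 192 and 214 CPM in MI, against 154, 163 and 184 CPM in Sham, a log2 fold change of 0.21 (SE 0.06) with the smallest p of any member, 0.00684 before and 0.597 after adjustment in edgeR. Cox8a, the smallest subunit in its widespread form, had 198, 222 and 245 CPM in MI, against 178, 199 and 209 CPM in Sham, with 0.18 (SE 0.06, unadjusted p 0.0119). The zinc-binding Cox5b had 47.5, 49.1 and 54.1 CPM in MI, against 40.3, 46.8 and 48.9 CPM in Sham, with 0.14 (SE 0.06, unadjusted p 0.0356). For each of these 3 genes, 3 of 6 MI libraries exceeded every Sham library and the other 3 fell inside the Sham range. Cox7a2l averaged 44.99 ± 2.64 CPM in MI and 41.9 ± 1.47 CPM in Sham, with 0.10 (SE 0.05, unadjusted p 0.0411). Cox7b, Cox6c, Cox5a, Cox7a2 and Cox7c had estimates of 0.15, 0.08, 0.10, 0.05 and 0.05, each at an unadjusted p over 0.05.

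In complex V, the 3 smallest p-values fell on subunits of different portions of the enzyme. Atp5e, a small subunit of the central stalk, had 51.2, 56.2 and 59.7 CPM in MI, against 49.4, 50.9 and 53.6 CPM in Sham, with 0.13 (SE 0.04, unadjusted p 0.00930). Atp5f1, the main subunit of the peripheral stalk, had 124, 134 and 144 CPM in MI, against 115, 123 and 126 CPM in Sham, with 0.12 (SE 0.04, unadjusted p 0.0139). In both genes 5 of 6 MI libraries exceeded every Sham library, the most of any member. Atp5j2, a membrane subunit, had 61.6, 66.5 and 72.7 CPM in MI, against 53.4, 61.3 and 64.5 CPM in Sham, with 0.16 (SE 0.06, unadjusted p 0.0141). The catalytic head is built from Atp5a1 and Atp5b. Atp5b averaged 1105 ± 57.6 CPM in MI and 1038 ± 51.1 CPM in Sham, and Atp5a1 averaged 772 ± 31.4 CPM in MI and 752 ± 27.0 CPM in Sham, with log2 fold changes of 0.09 (SE 0.05) and 0.04 (SE 0.05). The stalk subunits Atp5c1, Atp5d, Atp5h, Atp5j and Atp5o lay between 0.03 and 0.12. The membrane subunits Atp5k and Atp5mpl had 0.09 and 0.08, and the coupling factor Atp5s had 0.05. Atp5l, also a membrane subunit, had -0.00 (SE 0.09), with a sign that turned in several alternatives. Usmg5, which sits beside these membrane subunits, averaged 23.1 ± 1.55 CPM in MI and 20.9 ± 1.61 CPM in Sham (0.14, SE 0.06, unadjusted p 0.0364).

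**Figure D2:**
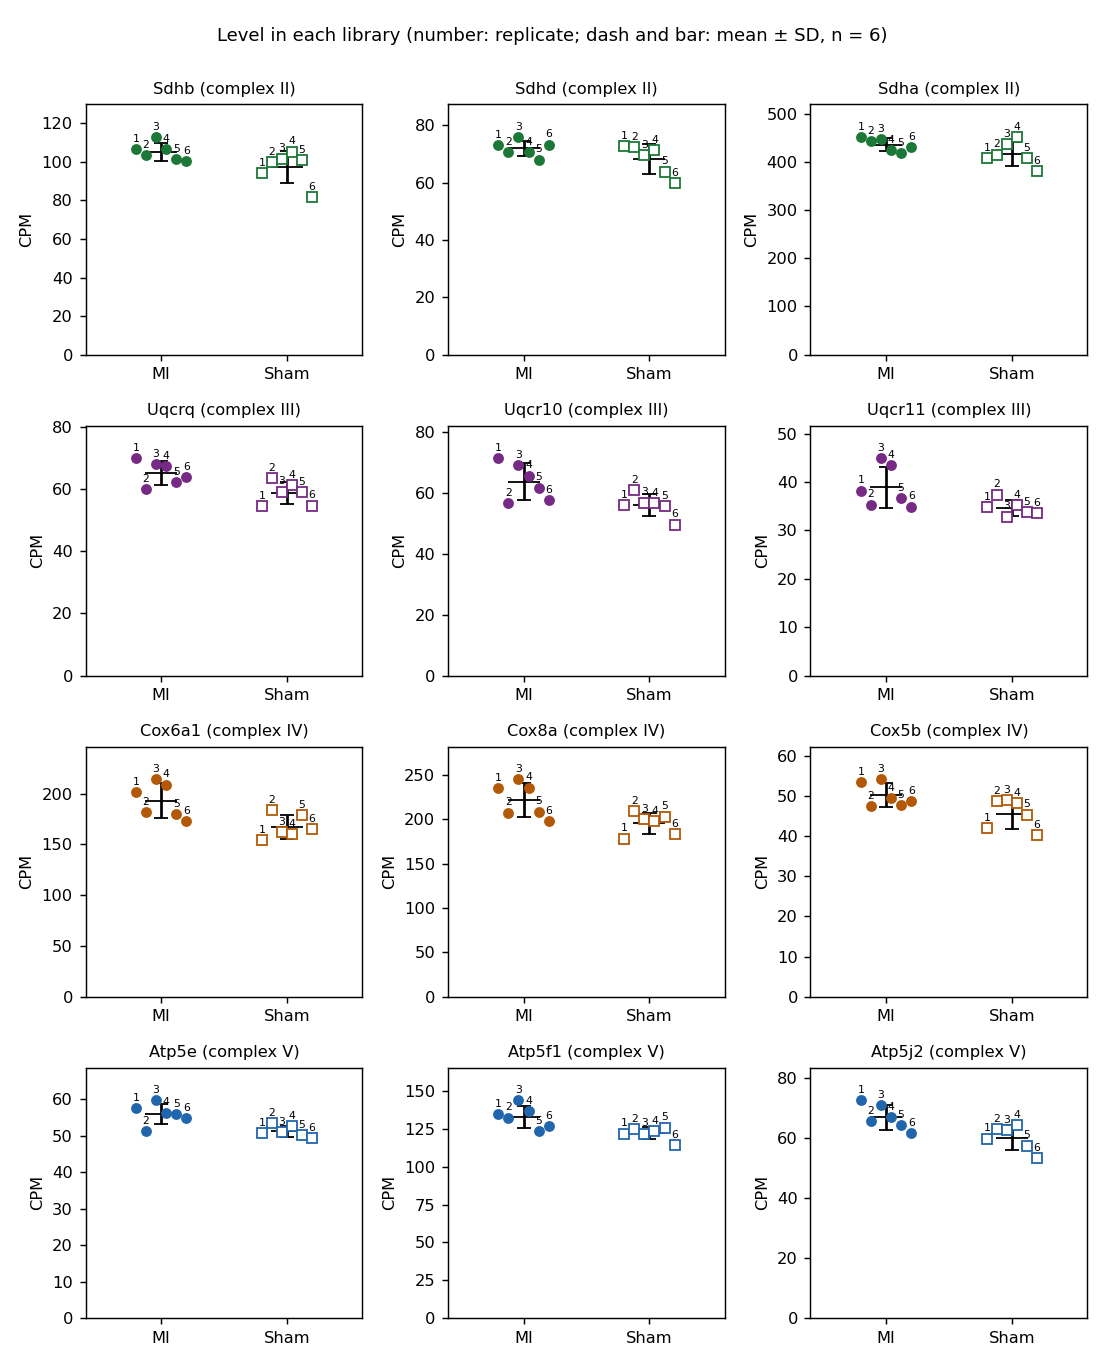
CPM in each of the 12 libraries for the 3 members of each complex with the smallest p, MI left and Sham right, with the replicate number beside each point and the mean ± SD (n = 6) in black. MI 1 and MI 3 are often at the top and Sham 6 often at the bottom, and the groups overlap in all 12 panels.

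The forms of complex IV known from heart and skeletal muscle were scarce in CA1, and their estimates were imprecise. Of the summed level per length of each pair, Cox6a2 made up 2.46 ± 0.45% in MI and 2.56 ± 0.94% in Sham (n = 6 libraries per group, SD), with Cox6a1 as the rest. Cox7a1 made up 1.87 ± 0.29% in MI and 1.503 ± 0.35% in Sham, with Cox7a2 as the rest. The level of Cox7a1 was 0.77, 0.99 and 1.25 CPM in MI, against 0.52, 0.83 and 0.99 CPM in Sham (log2 fold change 0.36, SE 0.20, unadjusted p 0.0977). Cox6a2 had 3.77, 4.64 and 6.37 CPM in MI, against 2.27, 4.18 and 6.43 CPM in Sham (0.16, SE 0.22). The Sham range contained the whole MI range for Cox6a2, and the differences in Cox7a1 rest on few counts. Markers of muscle were low, with 6 genes summing to 12.2 to 19.1 CPM in MI and 11.1 to 24.6 CPM in Sham.

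Cox4i2, a form of the regulatory subunit Cox4 that is known from lung and from low-oxygen conditions, made up 0.64 ± 0.19% of its pair per length in MI and 0.76 ± 0.13% in Sham. It had 0.67, 1.01 and 1.41 CPM in MI, against 0.99, 1.07 and 1.36 CPM in Sham (log2 fold change -0.14, SE 0.20). The widespread form Cox4i1 had 281, 307 and 354 CPM in MI, against 262, 292 and 307 CPM in Sham (0.12, SE 0.06, unadjusted p 0.0843). Cox6b2, known from testis, had 1.001, 1.54 and 1.71 CPM in MI, against 1.09, 1.56 and 2.31 CPM in Sham (-0.11, SE 0.18), while Cox6b1 had 122, 134 and 146 CPM in MI, against 103, 131 and 137 CPM in Sham (0.10, SE 0.07). The low forms thus had negative estimates where the abundant partner had a positive one, but both estimates of the low forms were smaller than their own SE, and the sign turned for Cox6b2 without Sham 1 (0.018) and for Cox4i2 in the Y-linked libraries alone (0.14). Cox7a2 had 87.5, 93.6 and 101 CPM in MI, against 83.5, 89.6 and 99.1 CPM in Sham.

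The rotating ring of the ATP synthase is built from 1 protein that is encoded by Atp5g1, Atp5g2 and Atp5g3. Of the summed level of the 3 genes per length, as counted, Atp5g3 made up 95.2 ± 0.50% in MI and 94.9 ± 0.25% in Sham. Atp5g1 made up 4.08 ± 0.44% in MI and 4.17 ± 0.26% in Sham. Of the read-length windows of the principal transcripts, 87.4% for Atp5g2, 11.1% for Atp5g1 and 0% for Atp5g3 also occurred in other annotated genes. The lengths were unions of annotated exons, with 1675 bases for Atp5g2, 4912 for Atp5g1 and 2181 for Atp5g3. The effect of shared windows and of length on the shares was not tested. The shares are therefore uncertain and were not read as the composition of the ring. Atp5g3 had 197, 210 and 228 CPM in MI, against 187, 203 and 211 CPM in Sham (log2 fold change 0.07, SE 0.05), and Atp5g1 had 17.7, 20.5 and 21.99 CPM in MI, against 18.3, 19.9 and 22.4 CPM in Sham (0.03, SE 0.06). Atp5g2 had 0.89, 1.27 and 1.502 CPM in MI, against 1.202, 1.44 and 1.66 CPM in Sham, the lowest estimate of any member (-0.18, SE 0.15, unadjusted p 0.243). The groups overlapped for all 3 genes.

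Levels per kilobase of exon, over the union of a gene's annotated exons, differed widely among subunits of 1 complex. The 3 highest in complex IV were Cox8a, Cox6a1 and Cox4i1, with 358, 275 and 203 CPM per kilobase in MI and 316, 238 and 186 in Sham. In complex V they were Atp5b, Atp5a1 and Atp5g3, with 261, 246 and 97.1 CPM per kilobase in MI and 245, 240 and 92.4 in Sham. Uqcr10, Uqcrh and Uqcrfs1 led complex III with 109, 84.0 and 72.6 CPM per kilobase in MI and 95.6, 79.5 and 68.0 in Sham. Sdha led complex II with 106 CPM per kilobase in MI and 101 in Sham, followed by Sdhd with 58.5 in MI and 55.5 in Sham and Sdhb with 47.0 in MI and 43.5 in Sham. At the low end stood Atp5l, with 0.59 CPM per kilobase in MI and in Sham, and Atp5g2, with 0.76 CPM per kilobase in MI and 0.86 in Sham. Of their read-length windows, 84.8% and 87.4% also occurred in other annotated genes, and the exon union of Atp5l is 6443 bases. The effect of either on these 2 levels was not tested.

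Short reads cannot always be assigned to these genes, many of which share stretches of sequence with annotated pseudogenes. For 10 of the 45 members, over 20% of the 50-base windows of the principal transcripts, the length of the reads, also occurred in other annotated genes. The shares were 87.4% for Atp5g2 and 84.8% for Atp5l, whose windows recurred in 12 pseudogenes, then 53.0% for Cox7c, 50.3% for Atp5o, 43.4% for Uqcrb, 38.8% for Atp5h, 38.7% for Atp5f1, 32.0% for Cox5a, 25.9% for Cox5b and 24.8% for Uqcrc2. Cox5b and Uqcrc2 each shared windows with 1 other gene and with 0 pseudogenes. For 19 members no window was shared. The levels and estimates of these 10 genes are therefore uncertain, Atp5f1 and Cox5b among them. Several members overlap a gene on the other strand, such as Atp5j with Gabpa and Cox4i1 with Emc8, and no source used here says whether counting used strand.

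Levels of the members varied between libraries within each group. Sham 6 was the lowest of the 12 libraries for 32 of 45 members, and MI 1 or MI 3 was the highest for 33. Members' counts made up 0.637% and 0.622% of all counts in MI 1 and MI 3, 0.566% to 0.592% in the other MI libraries, 0.495% in Sham 6 and 0.526% to 0.591% in the other Sham libraries. Measured against each gene's median over the 12 libraries, 40 members were above it in MI 1, 41 in MI 3 and 34 in MI 4, but 18 in MI 2, 23 in MI 5 and 19 in MI 6. In Sham, 4 members were above it in Sham 6 and 7 in Sham 5, against 16 to 27 in the other 4 libraries. MI 2, MI 5 and MI 6 thus fell in the range of Sham 1 to Sham 4. Sham 6 is also the library with the high dentate markers and with the lowest summed interneuron markers. The interneuron sums ran from 865 to 930.4 CPM in MI and from 683 CPM in Sham 6 to 955 CPM in Sham 4. The part of these markers in the members' levels was not tested. Without Sham 6, 40 members had a positive estimate, 8 were higher at an unadjusted p under 0.05 (4.52% of all genes were), and the medians of complexes II, III, IV and V were 0.05, 0.07, 0.08 and 0.04. Without MI 3, 7 members were higher at that level (2.93% of all genes were).

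**Figure D3:**
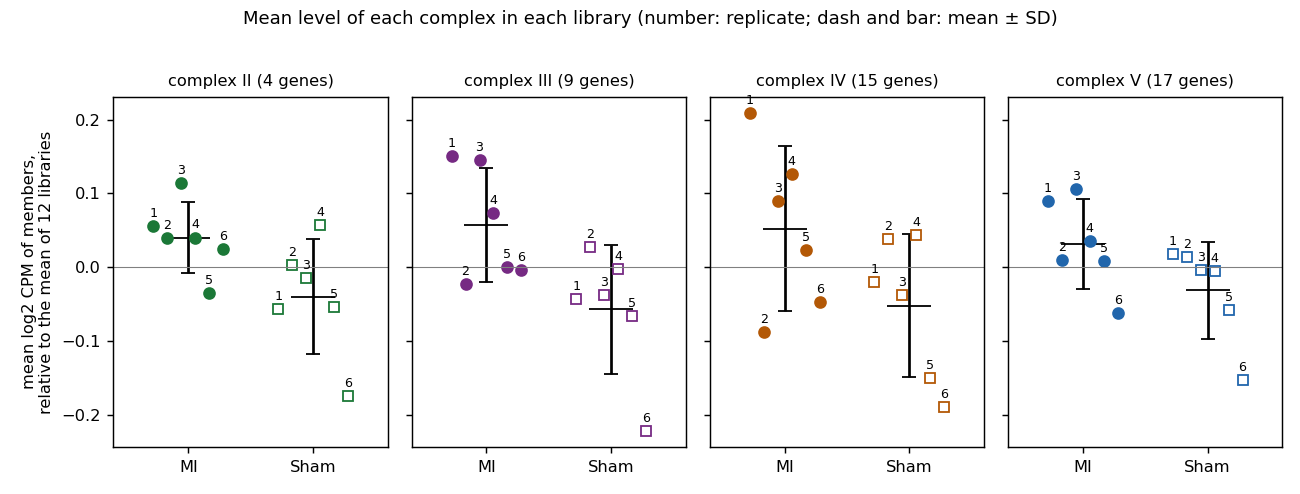
Mean log2 CPM of the members of each complex in each library, relative to the mean of the 12 libraries, MI left and Sham right, with the mean ± SD in black. Sham 6 is lowest in every panel, at -0.18 in complex II and -0.22 in complex III, and MI 2 and MI 6 lie among the Sham libraries in complex IV.

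Between the libraries with Y-linked counts and those with Xist counts, the difference of MI from Sham did not pass an adjusted p under 0.05 for any member in edgeR's interaction test, which called 0.0119% of all genes. The interaction was positive, meaning a higher estimate in the Y-linked libraries, for 34 of 45 members, with a median of 0.06 against 0.01 over all genes. Cox5a, Cox6a1 and Cox8a had an unadjusted p under 0.05, with interactions of 0.23, 0.23 and 0.21 (adjusted p of at least 0.597 in edgeR). Over all genes 8.24% had such a p, so 3 of 45 was no more than the background. Within the Y-linked libraries alone, the medians were 0.09, 0.13, 0.16 and 0.09 for complexes II to V and 12 members were higher at an unadjusted p under 0.05, where 7.59% of all genes were. Within the Xist libraries alone they were 0.07, 0.09, 0.07 and 0.06, with 0 such members, where 0.784% of all genes were higher. The count of genes past that level thus differed between the sets over all genes as well. MI 1, MI 3 and MI 4, the MI libraries with the highest member levels, are the 3 with Y-linked counts.

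Most members are short genes, and short genes as a class had higher estimates in these libraries. Over the tested protein-coding genes split into 10 equal classes of exon length, the median log2 fold change was 0.04 in the shortest class, where 65.6% of genes were positive, and -0.05 in the longest, where 27.4% were. The shortest class held 25 of the 45 members and the next class 9. The contrast between the shortest and longest class in a library, relative to the mean of the 12, was 0.14 in MI 1, 0.14 in MI 3 and 0.07 in MI 4, and 0.09 in Sham 2 and -0.17 in Sham 6. Mean member levels, relative to the mean of the 12, were 0.14 in MI 1, 0.11 in MI 3 and 0.07 in MI 4. They were 0.02 in Sham 2 and -0.18 in Sham 6. The median level of the shortest class alone was 0.065 in MI 1, 0.075 in MI 3 and 0.035 in MI 4. It was 0.037 in Sham 2 and -0.082 in Sham 6. The contrast is a difference between classes, so its size is not comparable with that of the member levels. Its sign was opposite to that of the member level in Sham 1 (0.03 against -0.01) and Sham 4 (-0.05 against 0.02). In the other libraries the signs were the same. With each estimate taken relative to the median of its own length class, 41 of 45 members were positive and their median was 0.06, with 0.06, 0.08, 0.08 and 0.04 in complexes II to V. On that scale the 4 negative genes were Cox4i2, Cox6b2, Atp5g2 and Atp5h (-0.19, -0.15, -0.22 and -0.0089), all in the shortest class, while the longer Atp5l had 0.02.

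**Figure D4:**
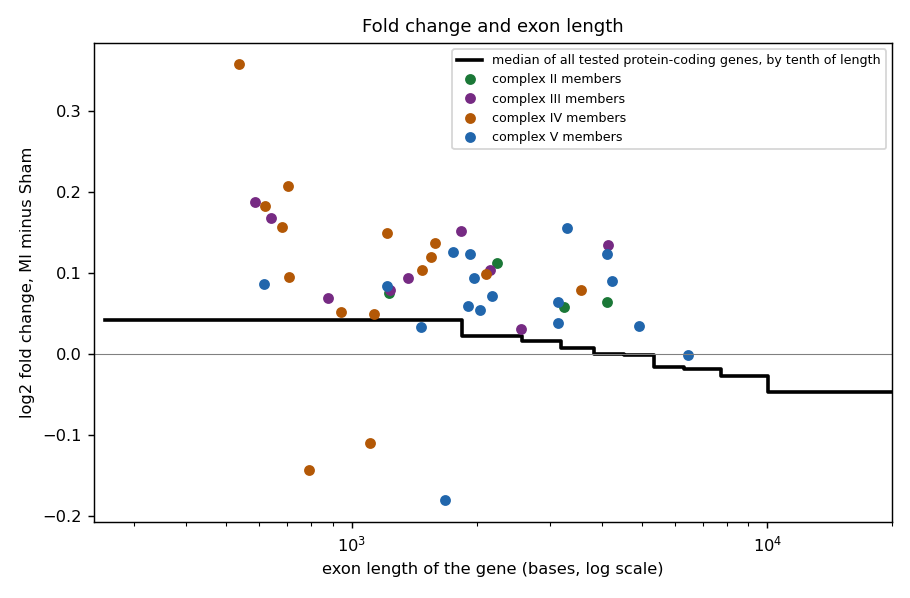
Log2 fold change of MI over Sham against exon length on a log axis, with 1 point per member and a black line for the median of all tested protein-coding genes in each of 10 length classes. The line falls from 0.04 to -0.05, and most members lie above it.

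The authors' deposited table of genes called different lists 7 members, all as higher in MI and 0 as lower. They are Cox7b, Atp5j2, Uqcr10, Cox6a1, Atp5e, Cox8a and Cox6c, with log2 fold changes in the authors' deposited table of 0.15, 0.12, 0.13, 0.13, 0.10, 0.10 and 0.09 and adjusted p-values from 0.00659 to 0.0463. Of the 16829 genes tested here, 3.13% are listed there as higher. In the authors' deposited table the within-group SD of the log2-scale values of these members was 0.029 to 0.053, against 0.061 to 0.175 for log2 CPM computed from the counts. In the deposited values all 6 MI libraries lay above all 6 Sham libraries for 5 of the 7 genes, and in the counts for none of the 7. Of all genes listed there as higher, 44.1% separated in this way in the deposited values and 7.22% in the counts. The 7 were called on these data by the authors, so their separation is a description. Cox7b, on the X chromosome, had the smallest adjusted p of the 7 in the authors' deposited table. From the counts it had 89.9, 93.5 and 106 CPM in MI, against 64.6, 93.1 and 97.1 CPM in Sham (log2 fold change 0.15, SE 0.09, unadjusted p 0.118), and its medians were nearly equal. No source used here says how the deposited values were made from the counts, and the tighter spread was not traced to a step.

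**Figure D5:**
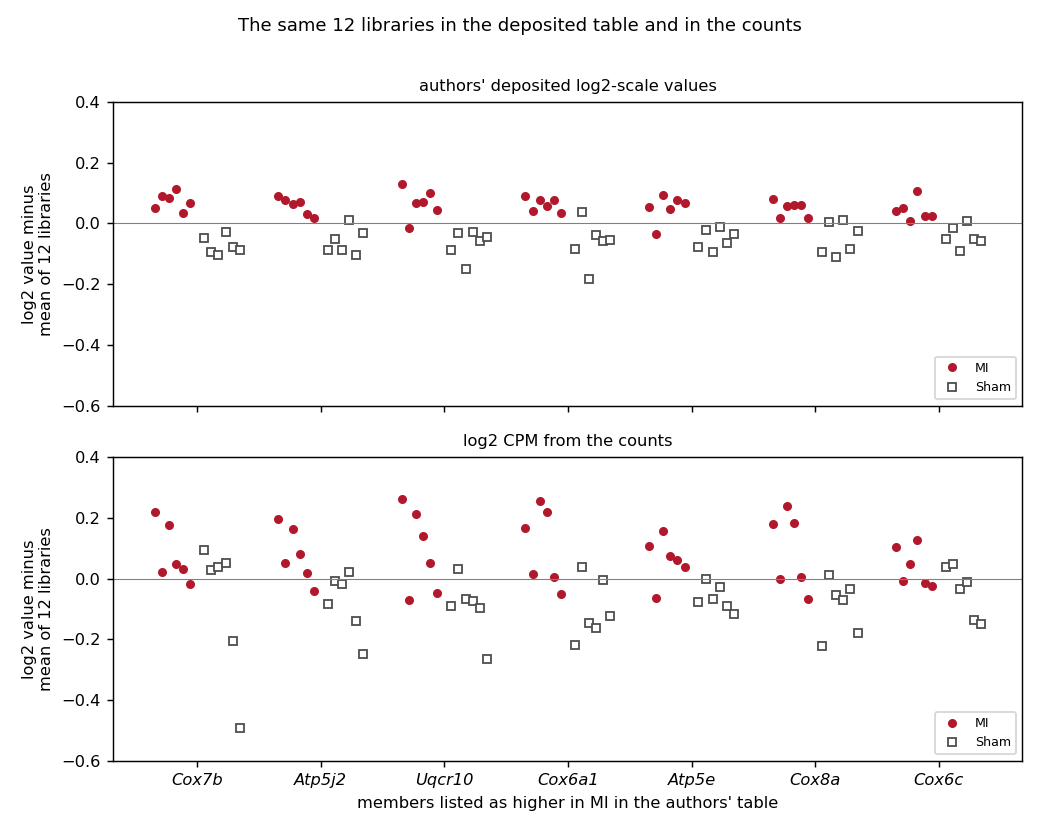
Log2 values of the 7 members in the authors' deposited table, each minus the gene's mean over 12 libraries, above the same libraries' log2 CPM from the counts, with MI as filled circles left of Sham as open squares. The deposited values separate the groups for 5 genes and spread less within each group, and Sham 6 is far below the rest for Cox7b in the counts.

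Other genes of the pathway were described from lists. Assembly factors, which build the complexes but are not part of them, lay nearer to 0 than the subunits: the median was 0.03 over 4 factors of complex II, 0.04 over 6 of complex III, 0.06 over 22 of complex IV and 0.04 over 5 genes for assembly and inhibition of complex V. Of these 37 genes, Uqcc2 of complex III (0.13, SE 0.05) and Pet100 of complex IV (0.16, SE 0.07) were higher at an unadjusted p under 0.05, and none was lower. Over all genes tested, 3.95% were higher and 3.59% lower at that level. No test compared factors with subunits. The nuclear subunits of complex I, the NADH dehydrogenase, had 35 of 37 positive estimates with a median of 0.12, where 47.6% of all genes were positive. At an unadjusted p under 0.05, 16 of the 37 were higher, where 3.95% of all genes were. Ndufa4, now placed in complex IV but counted by its symbol among those 37, had 0.11 (SE 0.07), and Cycs, the cytochrome c that carries electrons between complexes III and IV, had 0.00 (SE 0.09).

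The mitochondrially encoded partners had estimates below 0, each smaller than its SE. mt-Cytb, the core of complex III, averaged 8129 ± 451 CPM in MI and 8456 ± 724 CPM in Sham (log2 fold change -0.06, SE 0.07), and mt-Co1, the catalytic subunit of complex IV, averaged 11030 ± 547 CPM in MI and 11275 ± 1028 CPM in Sham (-0.03, SE 0.07). mt-Co2, mt-Co3, mt-Atp6 and mt-Atp8 are listed at 0 in all 12 libraries. No source used here gives the reason, and these zeros were not read as absence of the RNA. Among 12 regulators of respiratory genes, 7 estimates were positive and the median was 0.01. The nuclear receptor Esrra was higher at an unadjusted p of 0.00624 (0.21, SE 0.07), while the coactivator Ppargc1a had 0.08 (SE 0.08), Nrf1 had 0.09 (SE 0.05), Gabpa had 0.03 (SE 0.11), Yy1 had -0.08 (SE 0.06) and the mitochondrial transcription factor Tfam had 0.00 (SE 0.04). Of 10 markers of mitochondrial mass, the ADP/ATP carrier Slc25a5 (0.15, SE 0.05) and the import pore Tomm40 (0.13, SE 0.06) were higher at an unadjusted p under 0.05. Over all genes 3.95% were, and the median of the 10 markers was 0.04. None of these genes passed adjustment over all genes in edgeR.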

How the data were processed

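Polyadenylated RNA from mouse CA1 was sequenced as 50-base single-end reads, per the labels. The submitters' processing notes name FastQC 0.11.5, STAR 2.5.2b, featureCounts, Subread 1.5.1 and the genome build mm10. The authors deposited raw read counts per gene for each library, and a table of genes they called, with deposited log2 fold changes, deposited adjusted p-values and log2-scale values per library (no source used here says how these were made). Symbols, lengths and coordinates came from GENCODE M21, which held 48349 of 48709 identifiers.

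Counts were filtered with filterByExpr, scaled by TMM and tested across 16829 genes with edgeR 4.0.16 (robust quasi-likelihood F test, two-sided, Benjamini-Hochberg, threshold 0.05) under R 4.3.3, with no covariate. CPM used TMM-scaled library sizes, with a prior count of 2 for log2 values. SEs were the absolute log2 fold change over the square root of F. The fit was checked on simulated data. DESeq2 1.42.0 was an alternative. Shares of windows came from the principal transcripts of each gene. Members, pathway lists and alternatives were chosen with earlier results of these data known. Members were named by a rule: all of complex II, the 3 smallest p-values in the other complexes, tissue forms, and members at an unadjusted p under 0.05, with the lowest estimates, the highest levels or an entry in the deposited table.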

Additional observations from a re-analysis of the deposited data

Results flagged for a closer look

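Among the 98 group values examined for a single library far from the rest, 3 stood out, where chance picks about 1 group in 20. In each case the gap of the extreme library to its nearest neighbour was divided by the whole range of its group and exceeded the 95% critical value of Dixon's test for 6 samples. For Atp5g2, the ring-subunit gene with the fewest counts, MI 6 was the lowest MI library, 0.46 log2 units under the next (ratio 0.642). For Atp5c1, the gamma subunit of the central stalk, Sham 6 was the lowest Sham library by 0.16 log2 units (ratio 0.669). For Atp5f1, of the peripheral stalk, Sham 6 was again the lowest Sham library, by 0.09 log2 units (ratio 0.662).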

How the results depend on the processing

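No member was called under any of the 24 alternatives to the test, scaling, filter, covariates and libraries used. The 4 complex medians stayed positive in all of them, and when members with over 20% shared windows were left out. That last step reads the same fit, so it could not change the calls. Over all genes, 0 were called in edgeR (665 higher and 605 lower at an unadjusted p under 0.05), 11 with DESeq2 and 211 in the Y-linked libraries alone. The 11 members higher at an unadjusted p under 0.05 became 0 in the Xist libraries alone, 3 without Sham 1 and Sham 6 together, 5 with meningeal and dentate marker scores as covariates, and 7 to 13 when single libraries were left out, with 7 without MI 3. The cause of these shifts was not tested, and the first 2 settings also hold fewer libraries. Of all genes, 3.95% were higher at that level in the main fit and 0.784% in the Xist libraries. The share was 4.52% without Sham 6 and 2.93% without MI 3. No such share is given for the other settings in this section, so their member counts cannot be set against the background. Leaving out single libraries gave 40 to 43 positive members and medians of 0.05 to 0.09, 0.07 to 0.12, 0.08 to 0.13 and 0.04 to 0.09 for complexes II to V, with the lowest value of complex V without Sham 6. Without Sham 1 and Sham 6 together the complex II median was 0.04.

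Signs turned in at least 1 of the 24 alternatives for 10 of the 45 members, at no unadjusted p under 0.05. Atp5l was 0.0064 without the filter, 0.0042 with the replicate block, 0.060 in the Xist libraries and -0.037 to 0.041 when single libraries were left out. Cox6b2 was 0.058 in the Xist libraries, 0.052 without Sham 1 and Sham 6, 0.10 with the marker covariates and -0.21 to 0.018 when single libraries were left out. Atp5g1 was -0.048 and Cox4i2 was 0.14 in the Y-linked libraries, and Sdhc was -0.0069 in the Xist libraries. Atp5a1, Cox5a and Cox7c were -0.0045, -0.015 and -0.11 in the Xist libraries, and Cox7c was -0.025 with the marker covariates. Atp5s was -0.027 in the Y-linked libraries, and Uqcrc2 was -0.030 without Sham 1 and Sham 6 and -0.0038 without Sham 6 alone. The length-class comparison was chosen after the data were seen.

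MI and Sham libraries share replicate numbers. Deviations of same-numbered libraries correlated at 0.57, -0.46, 0.30, -0.46, -0.20 and 0.40 over 10648 genes. MI 1 and MI 6 were best matched by the Sham library of their own number, and MI 2, MI 3, MI 4 and MI 5 were not. With such mixed signs these values do not settle whether the numbers pair the libraries. With the replicate block 0 genes were called, 11 members were higher at an unadjusted p under 0.05, 42 were positive, and the medians were 0.07, 0.10, 0.10 and 0.07. Members with under 50 counts per library, such as Cox7a1 and Cox4i2, had SEs of 0.15 to 0.20. Differences of 1 SE or somewhat more could not be told from 0 for them at this depth. For Cox7a1, an estimate of 0.36 had an unadjusted p of 0.0977 in edgeR.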

Other observations

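Cytosolic ribosomal proteins, another class of short transcripts, had positive log2 fold changes for 60 of 75 genes, where 47.6% of all genes did. Their median log2 fold change was 0.06. Average counts per library ran from 15.8 for Rpl23a to 8356 for Rpl4. Windows shared with other genes were not measured for this class. At an unadjusted p under 0.05, 9 were higher and 1 lower in MI, where 3.95% and 3.59% of all genes were. The summed level of the ribosomal proteins was 2381 to 2561 CPM in MI and 2340 to 2422 CPM in Sham. Among complex I subunits the smallest unadjusted p-values in edgeR were those of Ndufa7 (0.23, p 0.000733), Ndufa13 (0.16, p 0.00446), Ndufb8 (0.16, p 0.00673) and Ndufa3 (0.20, p 0.00776), none of which passed adjustment over all genes. Of the oligodendrocyte genes, Cldn11, which forms tight junctions in myelin, averaged 121 ± 11.0 CPM in MI and 85.9 ± 21.5 CPM in Sham, and Mag, an adhesion protein of myelin, averaged 174 ± 15.8 CPM in MI and 121 ± 33.9 CPM in Sham (SD, 6 libraries per group). The astrocyte water channel Aqp4 averaged 131 ± 13.3 CPM in MI and 156 ± 13.1 CPM in Sham (log2 fold change -0.25, unadjusted p 0.00476 in edgeR), while the median over the 6 astrocyte markers was -0.01.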
